A study of Mus musculus with 60 samples.

Results

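Proteins of milk and proteins that glands secrete against microbes were followed through 10 genes across 20 mouse samples: Csn3, Csn1s1, Lalba, Btn1a1, Xdh, Ltf, Lcn2, Wfdc18, Muc15 and Glycam1. They were taken as every probe set annotated with exactly 1 of these symbols, which gave 11 of the 36899 probe sets on 3 Affymetrix array types for 10 of the 15964 genes with a symbol of their own. Muc15 was read on array type B and the others on type A. Lcn2 had 2 probe sets and every other gene 1. The mice had been ovariectomized, so they lacked ovarian steroids, and received daily injections into the abdominal cavity for 4 days. The E+P group of 5 animals received 2 µg of 17-beta-estrogen and 1 mg of progesterone, the E group of 4 animals 2 µg of 17-beta-estrogen, and the P group of 4 animals 1 mg of progesterone. The E+P CFP group held 3 fat pads without epithelium, exposed to both hormones. The V group of 4 animals received 100 µl of sesame oil; their titles and treatment text give the oil, although progesterone is named in a description field. The labels give neither strain nor age, nor whether the fat pads came from the animals of the E+P glands. Lymph nodes were removed at collection.

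Milk is made by luminal secretory cells of the mammary epithelium. In lactation, prolactin acts through the kinase Jak2 and the factors Stat5a and Stat5b on the casein genes, while progesterone in pregnancy drives side branching and alveolar growth and holds back full secretion. Caseins form the micelles of milk, alpha-lactalbumin enables lactose synthesis, and butyrophilin and xanthine oxidoreductase sit in the membrane that wraps secreted fat droplets. Lactoferrin and lipocalin 2 bind iron or iron carriers and so withhold iron from microbes; both are also stored in neutrophil granules.

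Values are the deposited MAS5 signals, on a linear scale, scaled by the authors to nearly the same trimmed mean on every array (150.028 to 150.102). Fold changes and log2 differences come from limma on log2 signals floored at 13.5 on type A and 28.5 on type B. A gene is said to have risen or fallen where the adjusted p over all 23055 tested probe sets was under 0.05. All 11 probe sets passed the filter on dim signals. Csn1s1 passed it through 3 animals only (P 3, E+P 2 and E+P 3) and Lalba through V 1, V 2 and V 3 only, so differences of these 2 genes are given as values. Each probe set was compared only with itself between samples, since probes differ in brightness.

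The sequences upstream of 4 members are shown because hormones and prolactin signalling are known to act on milk and secretory genes through such regions: Wfdc18 and Ltf as members that moved in opposite directions under E+P, and Csn1s1 and Glycam1 as those with a STAT5 element. RefSeq (GRCm38.p6) supplied the 250 bases before the start of 6 of the 10 members. Both strands were searched for TTCNNNGAA (STAT5 element), the palindromic estrogen receptor element and ACANNNTGT (core of the progesterone and glucocorticoid receptor element). Of 32851 promoter windows of that length, 7.02% held the first, 0.0639% the second and 5.84% the third. Capitals mark the match, and no capitals mean that none of these letters was found in the window. The Wfdc18 window lies at chr11:83708754-83709003 on the plus strand, that of Ltf at chr9:111019042-111019291 on the plus strand, that of Csn1s1 at chr5:87665958-87666207 on the plus strand and that of Glycam1 at chr15:103565082-103565331 on the minus strand.
Wfdc18: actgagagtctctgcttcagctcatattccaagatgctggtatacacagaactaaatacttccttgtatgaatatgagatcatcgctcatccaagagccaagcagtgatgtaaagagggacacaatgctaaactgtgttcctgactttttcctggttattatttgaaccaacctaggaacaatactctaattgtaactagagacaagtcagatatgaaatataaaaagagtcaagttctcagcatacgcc
Ltf: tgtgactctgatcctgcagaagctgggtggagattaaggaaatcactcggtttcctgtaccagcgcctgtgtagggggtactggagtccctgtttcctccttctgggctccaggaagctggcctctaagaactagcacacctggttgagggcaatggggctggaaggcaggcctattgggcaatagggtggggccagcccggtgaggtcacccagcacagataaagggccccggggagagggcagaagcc
Csn1s1: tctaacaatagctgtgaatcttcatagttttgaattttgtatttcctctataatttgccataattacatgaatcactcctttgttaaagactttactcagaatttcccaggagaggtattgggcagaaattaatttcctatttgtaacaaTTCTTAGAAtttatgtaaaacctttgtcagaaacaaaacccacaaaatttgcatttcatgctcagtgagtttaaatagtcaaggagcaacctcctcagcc
Glycam1: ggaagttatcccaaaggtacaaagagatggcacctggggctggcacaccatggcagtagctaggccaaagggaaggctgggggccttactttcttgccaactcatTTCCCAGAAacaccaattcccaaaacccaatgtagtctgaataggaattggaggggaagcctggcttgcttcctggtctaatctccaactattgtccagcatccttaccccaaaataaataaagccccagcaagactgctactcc
The Csn1s1 match spans bases -100 to -92 from the start and the Glycam1 match -145 to -137. Lcn2 held ACAGAATGT at -152 to -144, and the Lalba window held no match. A match describes letters, not a bound factor.

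None of the caseins and alpha-lactalbumin passed the test among intact glands. Csn3, kappa-casein, which caps and stabilises the casein micelle, had 849, 435, 1533, 479 and 340.3 signal units in E+P, 1121, 721, 928 and 1319.5 in E, 555, 789.7, 1782 and 688 in P, and 2218, 1642, 1086 and 728 in V. The intact groups overlapped, with E+P 5 lowest and V 1 highest. In the fat pads the signal was 34.7, 9.6 and 5.9, below every intact gland. Against V the E+P difference was -1.07 ± 0.42 on the log2 scale (SE, adjusted p = 0.343), and those of E and P were -0.38 ± 0.45 and -0.60 ± 0.45.

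Csn1s1, alpha-S1 casein, was dim in most animals. It had 44.9, 101, 83.3, 12.2 and 7.3 units in E+P, 13.6, 4.7, 2.4 and 22.2 in E, 5.6, 32.2, 186 and 22.8 in P, 1.2, 2.5 and 2.9 in the fat pads, and 54.8, 18.4, 3.7 and 17.5 in V. P 3 was the highest of all animals, and the intact groups overlapped. The E+P difference from V was 0.74 ± 0.73 (adjusted p = 0.792), a value that includes floored animals on both sides.

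Between Csn1s1 and Csn3 the RefSeq gene order holds Csn2, Csn1s2a, Csn1s2b and 3 further genes. Csn2, beta-casein, was too dim to be tested and reached 86.5 units in P 3, the animal with the highest Csn1s1, Csn3 and Btn1a1 of its group; elsewhere it lay between 10.9 and 38.9. Wap, the whey acidic protein, and Csn1s2a were at the floor in all 20 animals.

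Lalba, alpha-lactalbumin, the regulatory subunit of lactose synthase, was bright in 3 vehicle animals only. It had 4.8, 3.5, 7.1, 11.1 and 7.7 units in E+P, 18.1, 7.4, 37.8 and 6.8 in E, 7.9, 15.1, 21.8 and 11.4 in P, 12.3, 8.5 and 11 in the fat pads, and 103, 120.3, 81.1 and 17.4 in V. All 5 E+P animals were at the floor and all 4 V animals above it. V 1, V 2 and V 3 were higher than any other animal, while V 4 lay within the range of E and P. The E+P level was at least 4.79-fold lower than that of V, with an adjusted p of 0.0821. Without V 4 the difference from V was -2.89 ± 0.50 for E+P and -2.41 ± 0.52 for E, both then past the threshold. For P it was -2.68 ± 0.52, which did not pass (adjusted p = 0.114). Because Lalba entered the test only through V 1, V 2 and V 3, these differences are given as values and not counted as falls.

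Of the fat globule genes, Btn1a1 fell under E+P while Muc15 rose and Xdh did not pass the test in any comparison. Against V, 2 of 10 members rose (Wfdc18 and Muc15; 0.252% of all tested probe sets rose) and 2 fell (Ltf and Btn1a1; 0.213% fell). The groups did not overlap in 5 members, against 4.4% of all tested probe sets. These were the members that rose or fell and Lalba, which only V animals brought into the test. The median difference of the 10 members was -0.18 log2 units, beside 0.014 over all tested probe sets.

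The epithelium's own markers differed between the groups too. The score of 14 luminal marker genes (mean deviation of their log2 signals) ran from 0.68 to 1.20 in E+P, 0.23 to 0.94 in E, -0.032 to 0.18 in P, -3.27 to -3.09 in the fat pads and 0.34 to 0.63 in V. Of these markers 0 of 14 passed for E+P against V, and Krt7, Cldn4, Elf3 and Cd24a rose in E+P against P. With the score in a model of the intact glands no call against V was kept: Wfdc18 was 1.56 (adjusted p = 0.410), Muc15 1.04 (adjusted p = 0.667), Ltf -1.06 (adjusted p = 0.514) and Btn1a1 -1.66 (adjusted p = 0.577). Every E+P score lay above every V and every P score, so this model cannot separate the score from the group there. Of 8 endothelial markers, Cdh5 and Cldn5 fell in E+P against V, the summed signal being 1459 to 2066 in E+P and 1996 to 2883 in V, and Cdh5 was also lower in E+P glands than in the fat pads, which summed to 2447 to 2863. The part of vessels in the members' differences was not tested. In whole tissue, fewer or more cells of a type and less or more RNA per cell cannot be told apart.

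Btn1a1, butyrophilin, had 94.3, 25.5, 147, 68.0 and 30.8 units in E+P, 110.0, 75.4, 96.6 and 98.3 in E, 135, 177, 250.2 and 114 in P, 7.2, 5.1 and 5.2 in the fat pads, and 552, 261, 179 and 153 in V. No E+P and no E animal reached the lowest V animal, whereas P overlapped V. The E+P difference was -2.07 ± 0.43 log2 units, or 4.21-fold lower (adjusted p = 0.0314). The call was lost without E+P 2 (adjusted p = 0.106), E+P 5 (0.0842), V 1 (0.109), V 2 (0.0904) or V 3 (0.0666). The E difference was -1.41 ± 0.45 (adjusted p = 0.207) and the P difference -0.63 ± 0.45 (adjusted p = 0.759).

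Muc15, a membrane mucin described in bovine milk fat globules, had 359, 505, 302, 179.7 and 457 units in E+P, 68.1, 68.8, 114 and 166 in E, 99.1, 137, 426 and 175 in P, 1.4, 3.3 and 27.3 in the fat pads, and 149, 107, 76.6 and 89.4 in V. E+P lay wholly above E and V. P overlapped E+P through P 3 alone. The rise against V was 1.73 ± 0.37 log2 units, or 3.32-fold (adjusted p = 0.0339). It lost the call without E+P 1 (0.0679), E+P 2 (0.115), E+P 3 (0.0526), E+P 5 (0.0914), V 2 (0.0888), V 3 (0.133) or V 4 (0.0638), values being adjusted p.

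Xdh, xanthine oxidoreductase, an enzyme of purine breakdown that many tissues carry, had 239.6, 72.6, 141, 188 and 113 units in E+P, 195, 176, 139.8 and 231 in E, 266, 176, 282 and 266 in P, 122, 192 and 127 in the fat pads, and 270.1, 196, 169 and 111 in V. Every group overlapped every other, the fat pads included. The E+P difference from V was -0.35 ± 0.29 (adjusted p = 0.745).

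**Figure D1:**
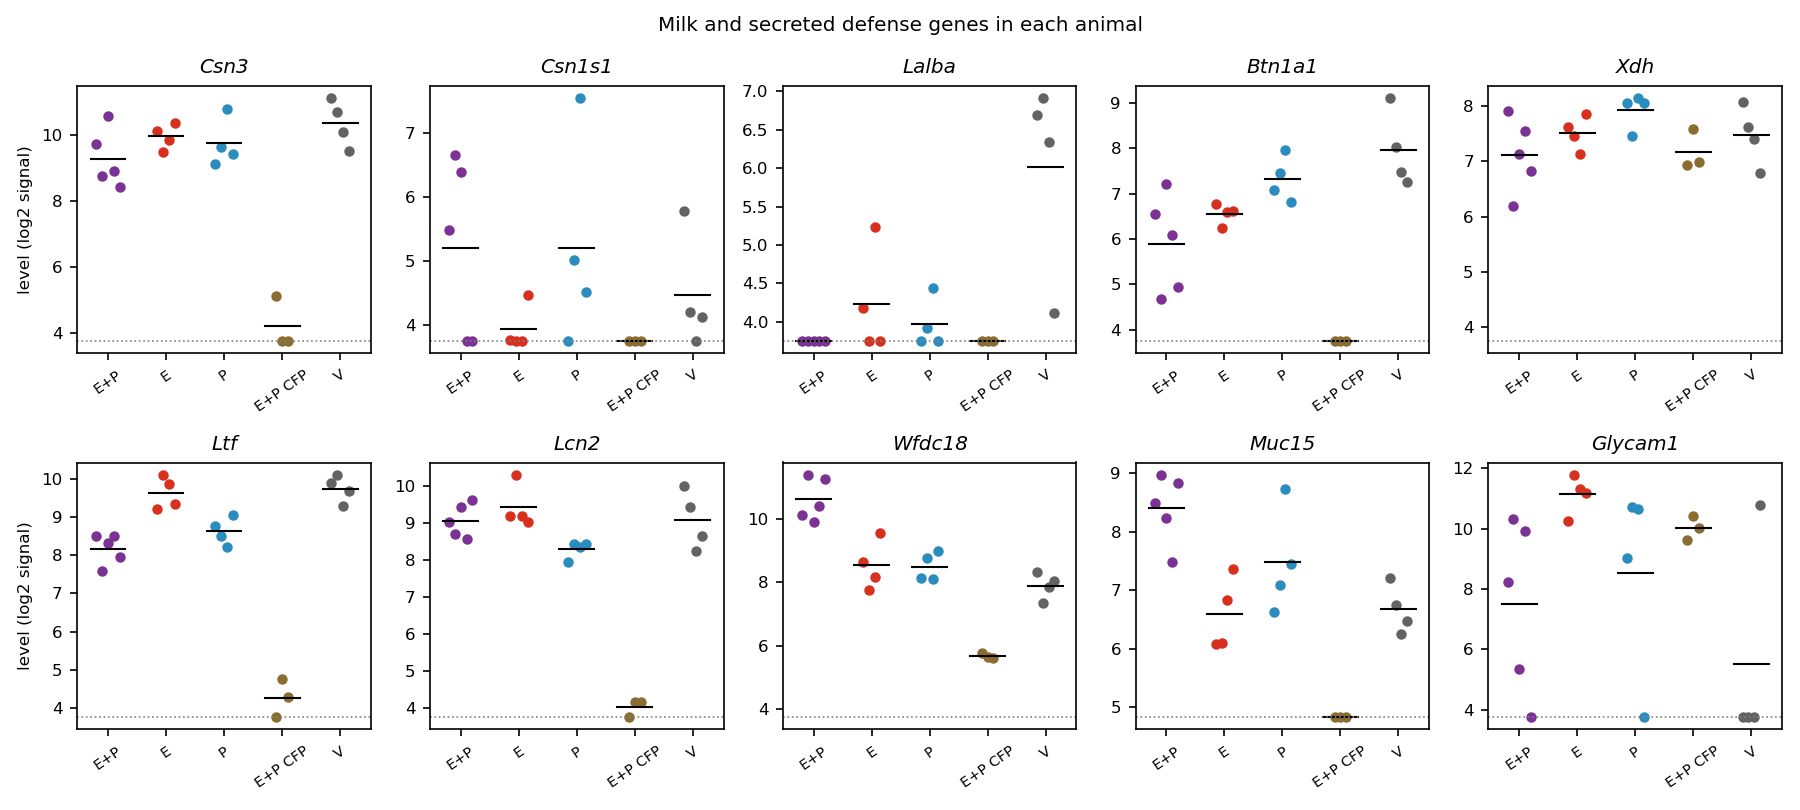
Level of the 10 genes in each animal by group, in log2 signal units after flooring (points are animals, black bars group means of the log2 levels, the dotted line the floor); each panel has its own scale, which does not start at 0. The 5 E+P animals lay above every other animal for Wfdc18, the fat pads lay lowest for Csn3, Btn1a1, Ltf, Lcn2, Wfdc18 and Muc15, and V 4 alone of the V animals had Glycam1 above the floor.

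Among the defence proteins Wfdc18 rose and Ltf fell under E+P, and Lcn2 did not pass against V. Wfdc18, a secreted member of the whey acidic protein family, had 1105, 2672, 961, 1337 and 2445 units in E+P, 395, 215, 288 and 754 in E, 280.4, 434, 275 and 501 in P, 54.9, 50.4 and 49.2 in the fat pads, and 319, 163, 232 and 260.4 in V. The lowest E+P animal lay above the highest of E, P and V, and the E, P and V groups overlapped. The group means were 1704 ± 796 units in E+P (SD, n = 5) and 244 ± 64.7 in V (SD, n = 4).

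Wfdc18 rose under E+P by 2.72 ± 0.33 log2 units against V, or 6.59-fold (adjusted p = 0.000438). Against E it rose by 2.08 ± 0.33 (adjusted p = 0.0106), one of 2 members that rose there (0.0737% of all tested probe sets), and without E 2 the adjusted p was 0.0515. Against P it rose by 2.12 ± 0.33 (adjusted p = 0.0065), the 1 member that rose (0.278% of all tested probe sets). Leaving out any single animal kept the V and P calls, with adjusted p up to 0.00386 and 0.0357. With the luminal score in the model of intact glands Wfdc18 was 1.41 against E (adjusted p = 0.212) and 0.12 against P (adjusted p = 0.992). The E+P and P scores did not overlap, so for P that model cannot separate the score from the group.

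Ltf, lactoferrin, moved the other way. It had 361, 192, 319.9, 366 and 248 units in E+P, 594, 1099, 937 and 657 in E, 435, 362, 297 and 531 in P, 8.1, 27.2 and 19.6 in the fat pads, and 957, 1111, 632 and 827 in V. The E+P and P animals all lay below every E and V animal, and the E and V animals overlapped. Ltf fell under E+P by 1.58 ± 0.24 log2 units against V (2.99-fold lower, adjusted p = 0.00429), and leaving out any 1 animal kept the call with adjusted p up to 0.0233.

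Against E, Ltf was the 1 member that fell, by 1.46 ± 0.24 (adjusted p = 0.017; 0.0694% of all tested probe sets fell). That call was lost without E 2 (adjusted p = 0.0755), E 3 (0.0656) or E+P 2 (0.0571). The difference of P from V was -1.12 ± 0.26 (adjusted p = 0.231), and that of E from V was -0.12 ± 0.26 (adjusted p = 0.901). Muc15 rose against E by 1.81 ± 0.37 (adjusted p = 0.047), a call lost on leaving out any 1 of 14 of the 20 animals: E+P 1, 2, 3 and 5, E 1, 2 and 3, P 4, each of the fat pads, and V 2, 3 and 4. The adjusted p was then between 0.0529 and 0.231. The 3' to 5' signal ratio of the Gapdh control, a measure of RNA integrity or labelling, was also lower in E (0.30 to 0.78 log2 units on type A) than in V (0.98 to 1.88), and ran from 0.57 to 1.46 in E+P. With that ratio in the model none of the 3 members passed against E, Wfdc18 having 1.83 (adjusted p = 0.0783) and Ltf -1.15 (adjusted p = 0.071).

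Lcn2, lipocalin 2, which binds bacterial siderophores, had 524, 416, 689.6, 379 and 786 units in E+P, 583, 1271, 585 and 519 in E, 248, 349, 330.0 and 345 in P, 2.5, 17.8 and 18.1 in the fat pads, and 1033, 691, 302 and 403 in V. All P animals lay below all E+P and all E animals, and V overlapped all 3 groups. The E+P difference from V was -0.016 ± 0.31 (adjusted p = 0.992) and from P was 0.77 ± 0.31 (adjusted p = 0.320). Its second probe set read 54.2 to 103 units over all groups, fat pads included, and passed in no comparison. On that probe set all P animals (84.1 to 101 units) lay above all E animals (60.0 to 79.3). The E+P difference from P was -0.46 ± 0.19 there (adjusted p = 0.329). The 2 probe sets of Lcn2 thus disagreed about the fat pads and about P.

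E 2 carried the highest Ltf and Lcn2 of the E group and also a neutrophil signal. The summed signal of 11 neutrophil marker probe sets was 16055 units in E 2, against 669 to 809 in the other E animals, 426 to 845 in E+P, 506 to 833 in P, 576 to 728 in the fat pads and 595 to 977 in V. S100a8, a neutrophil calcium-binding protein, reached 6867 units there and Ngp, a neutrophil granule protein, 1595. Without E 2 the E difference from V was 0.048 ± 0.31 for Lcn2 and -0.27 ± 0.27 for Ltf. The part of the neutrophils in the levels of E 2 was not tested.

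**Figure D2:**
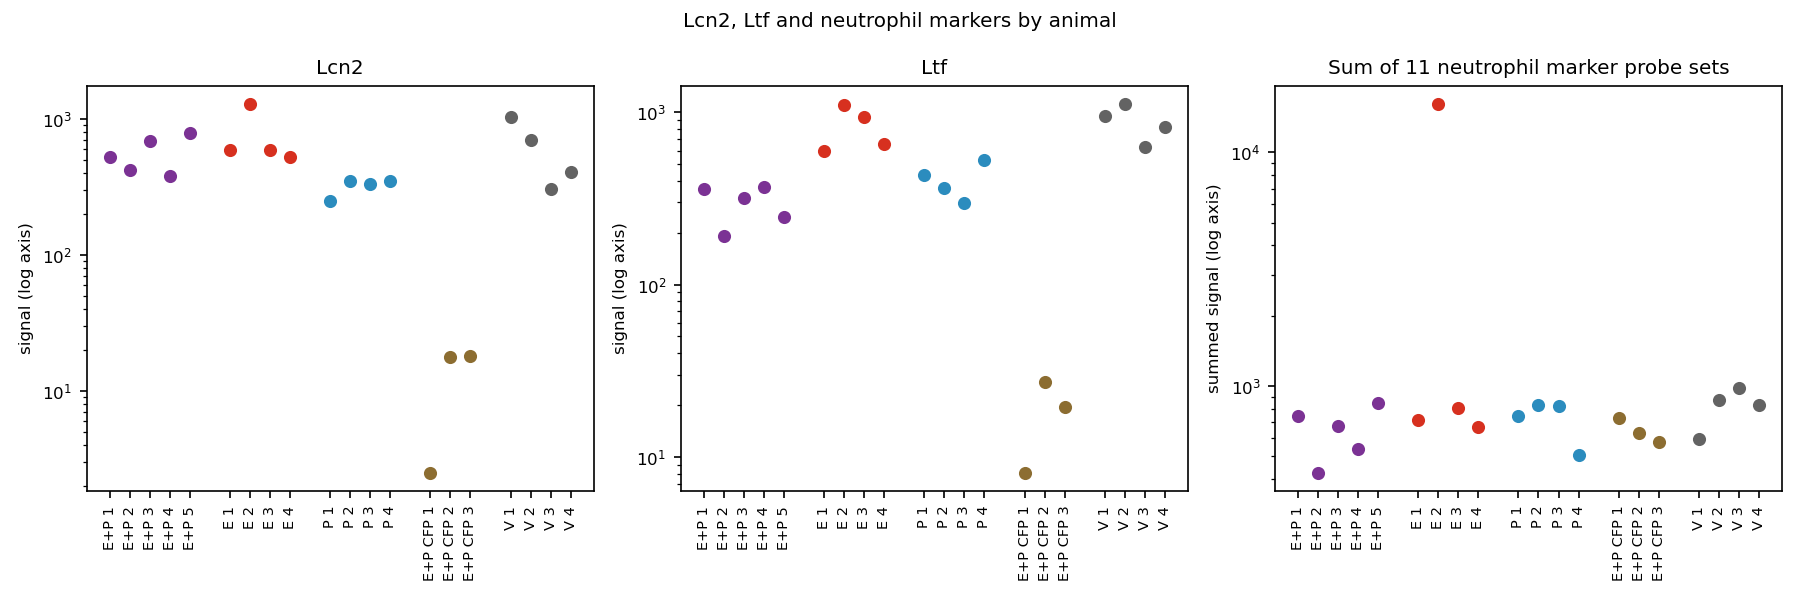
Signal of Lcn2, signal of Ltf and the summed signal of 11 neutrophil marker probe sets in each of the 20 animals, on log axes in signal units, coloured by group. E 2 stands alone in the neutrophil sum at 16055 units and is the highest E animal for both genes, while the fat pads are low for both genes with a neutrophil sum of 576 to 728.

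Estrogen alone and progesterone alone moved no member past the test. For E against V limma called 0 of 10 (0.182% of all tested probe sets), and for P against V 0 of 10 (0%). The interaction of the hormones, which asks whether both together differ from the sum of each alone on the log2 scale, called 0 of 10 (0.0737%). It was 1.48 ± 0.48 for Wfdc18 (adjusted p = 0.253), 1.00 ± 0.53 for Muc15 (adjusted p = 0.478) and -6.65 ± 2.21 for Glycam1 (adjusted p = 0.256). These comparisons share the V animals, and E+P against E and against P share the E+P animals.

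**Figure D3:**
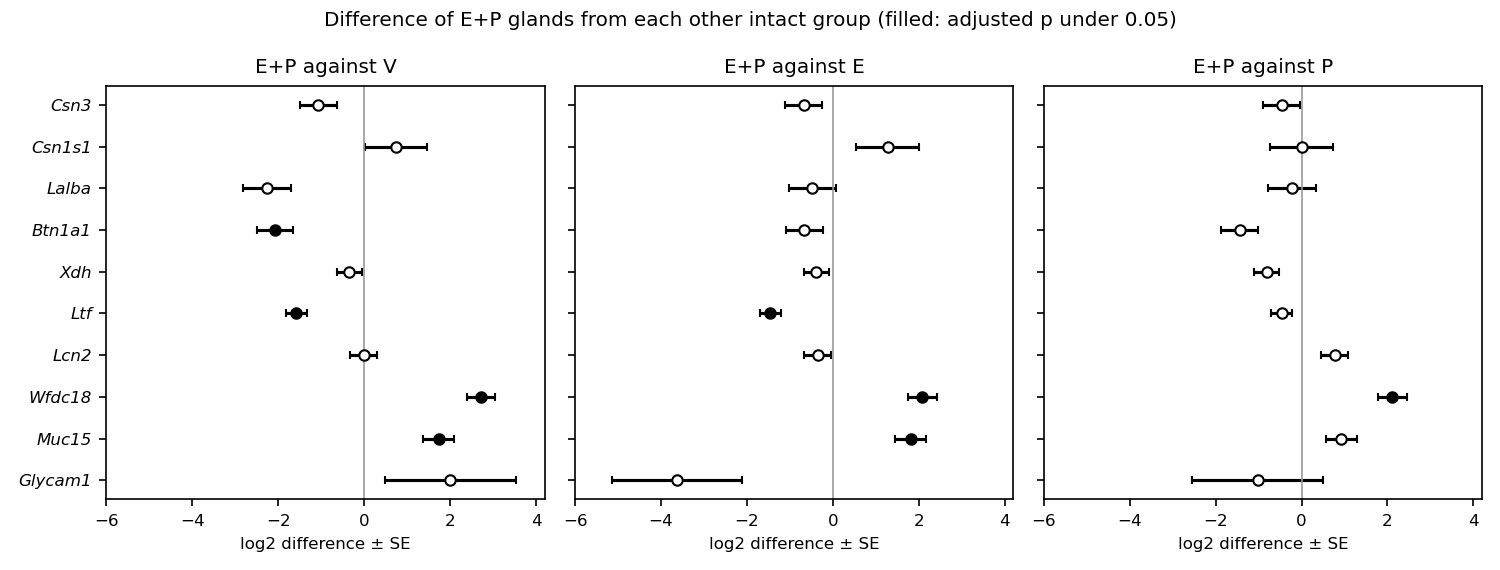
Differences of the 10 genes in log2 signal (points, bars are ± 1 SE) for E+P against V, against E and against P; filled points had an adjusted p under 0.05. Wfdc18 is filled in all 3 panels, Muc15 and Ltf against V and E, and Btn1a1 against V alone.

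Most members were lower in the fat pads without epithelium than in any intact group. Krt8 and 6 other luminal markers of 16 were at the floor in all 3 fat pads, and all 14 tested were higher in E+P glands. E+P glands had 6 of 10 members higher than the fat pads and none lower (5.24% of all tested probe sets were higher): Csn3 by 5.07 ± 0.46 log2 units, Lcn2 by 5.04 ± 0.34, Wfdc18 by 4.92 ± 0.36 and Ltf by 3.90 ± 0.27, with adjusted p of 1.52e-07, 1.21e-09, 5.27e-09 and 1.68e-09. For Csn3, Lcn2 and Ltf these are lower bounds, since 1 or 2 of the fat pads were at the floor. Muc15 was at the floor in all 3 fat pads and at least 11.9-fold higher in E+P (adjusted p = 1.59e-06). Btn1a1 was too, and at least 4.40-fold higher in E+P (adjusted p = 0.00508). The median of the members was 2.86, beside 0.016 over all tested probe sets. The 6 members passed the filter on dim signals through intact glands only, no fat pad being above its limit. They thus entered the test through the side where they were high. The adjusted p values take the fat pads as animals other than those of the E+P glands, which the labels do not settle.

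Wfdc18 stayed above the floor in the fat pads at 49.2 to 54.9 units, its highest value being 1.12-fold the lowest, against 2.78-fold within E+P and 1.95-fold within V. Xdh differed by -0.053 ± 0.32 (adjusted p = 0.954) between E+P glands and fat pads, and Csn1s1 by 1.45 ± 0.79 (adjusted p = 0.321). Against V the same 6 members were lower in the fat pads (2.41% of all tested probe sets were lower), led by Csn3 at -6.14 ± 0.48 (adjusted p = 2.00e-08) and Ltf at -5.48 ± 0.28 (adjusted p = 3.08e-11). That comparison differs in tissue and in hormones at once, and there too the 6 members had entered the test through intact glands only. The fat pads also held a skeletal muscle marker sum of 5456 to 9287 units, against 882 to 1941 in E+P glands and 1130 to 2538 in V. In E this sum ran from 741 to 4947, with E 1 highest, and in P from 1012 to 1410. Of 7 adipocyte markers, Adipoq, Retn, Lipe and Pparg were lower in E+P glands than in the fat pads, and Lep was higher in the fat pads than in V. The adipocyte sum was 15088 to 21500 in E+P glands and 27026 to 29101 in the fat pads, with 17774 to 24111 in V. The part of muscle and fat in the differences was not tested.

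Glycam1, a mucin-like ligand of L-selectin on the venules of lymph nodes and also a whey protein, was as bright in the fat pads as in many glands. It had 298, 1274, 40.4, 969 and 11.8 units in E+P, 1233, 3535, 2545 and 2319 in E, 522, 1664, 1597 and 7.9 in P, 783, 1357 and 1040.4 in the fat pads, and 9.8, 3.3, 3.8 and 1761 in V. All E animals and all fat pads were bright, and V held 3 animals at the floor and 1 bright one. The difference from V was 2.00 ± 1.52 log2 units for E+P (adjusted p = 0.707) and 5.63 ± 1.60 for E (adjusted p = 0.163), and the interaction was -6.65 ± 2.21 (adjusted p = 0.256). The fat pads differed from V by 4.50 ± 1.73 (adjusted p = 0.213), with V 4 above all of them. Without V 4 the remaining V animals were all at the floor, and E was at least 167-fold higher (adjusted p = 0.0233) and the fat pads at least 76.6-fold higher (adjusted p = 0.029).

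Glycam1 and lymphocyte markers moved together from animal to animal. The summed signal of 11 lymphocyte marker probe sets was 400.3, 1577, 396, 1321 and 340.2 in E+P, 1198, 5263, 1418 and 1894 in E, 993, 1565, 1901 and 291 in P, 1011, 1171 and 1322 in the fat pads, and 277, 286, 332 and 2091 in V. The 7 lowest sums were those of E+P 1, E+P 3, E+P 5, P 4, V 1, V 2 and V 3, and these were the 7 animals with the lowest Glycam1. Across the 20 animals the genes most like Glycam1 on type A were Cd79b (r = 0.95) and Ms4a1 (r = 0.95), both B lymphocyte genes, as a description over animals that share arrays and groups. With a lymphocyte score in the model the difference from V was 1.83 ± 0.76 for E (adjusted p = 0.523) and 2.10 ± 0.75 for the fat pads (adjusted p = 0.154). Of 3 tested lymph node stroma and venule markers none passed in any comparison, and neither did Glycam1 with all animals in. The summed signal of these markers was 116 to 321 in E+P, 276 to 635 in E, 170 to 377 in P and 175 to 326 in the fat pads. In V 1, V 2, V 3 and V 4 it was 151, 199, 115 and 324. Among these markers Madcam1 and Fut7 were at the floor in no animal. Cxcl13 was at the floor in V 1, V 2, V 3, P 4, E+P 3 and E+P 5, but not in E+P 1. It read 92.7 to 360 units in E and 46.8 to 108 in the fat pads. The part of lymphocytes or node tissue in the Glycam1 levels was not tested beyond the model with the lymphocyte score.

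**Figure D4:**
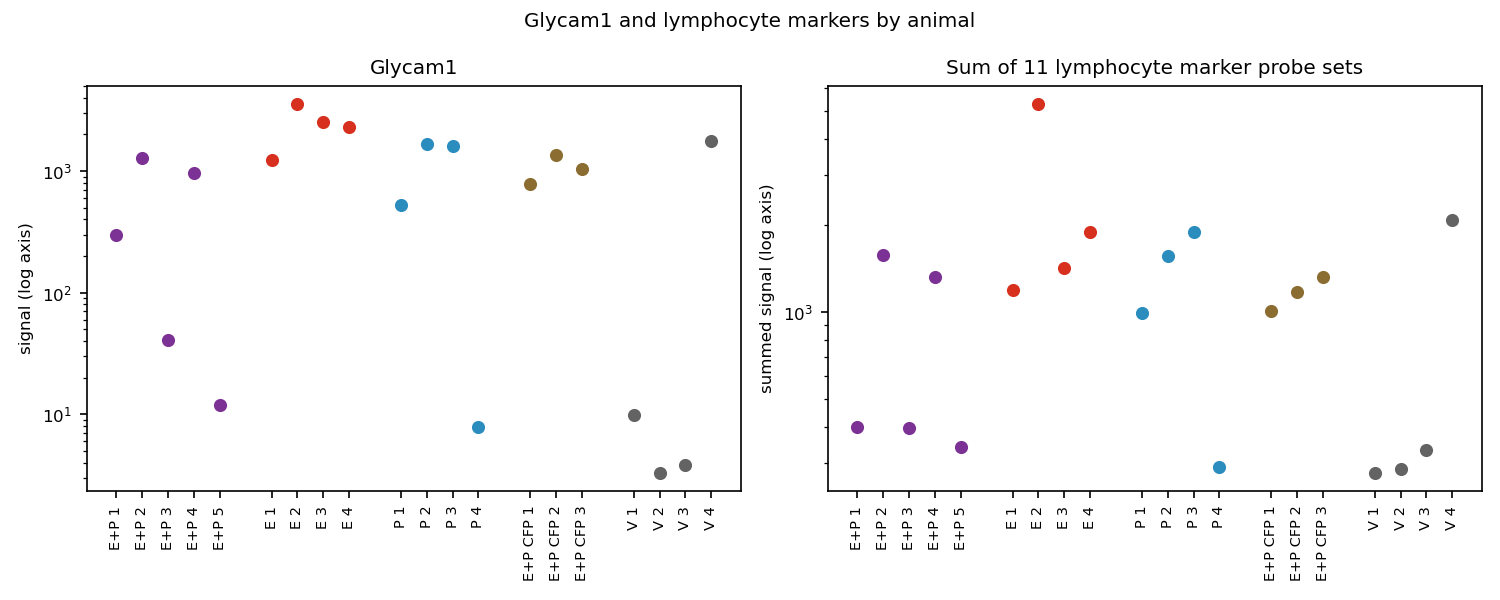
Signal of Glycam1 and summed signal of 11 lymphocyte marker probe sets in each of the 20 animals, on log axes in signal units, coloured by group. The 3 V animals with Glycam1 of 3.3 to 9.8 have lymphocyte sums of 277 to 332, and V 4, with 1761, has 2091.

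The genes most like the other members over the 20 animals, again a description over animals that include the 3 fat pads, were as follows. Ltf went with Tmprss2 (r = 0.95) and Mlph (r = 0.95), and Lcn2 with Tfcp2l1 (r = 0.96) and Mlph (r = 0.95). Csn3 went with Tlcd4 (r = 0.96) and Gipc2 (r = 0.96), and Btn1a1 with Csn3 (r = 0.89) and Abcc8 (r = 0.88). Wfdc18 went with the collagen gene Col7a1 (r = 0.93) and Emid1 (r = 0.91), and Muc15 with the epithelial factor Ehf (r = 0.95) and Trps1 (r = 0.92). Xdh, Lalba and Csn1s1 went highest with Sstr2 (r = 0.77), Noct (r = 0.75) and Slmap (r = 0.81).

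Few other genes of milk, of prolactin signalling and of defence passed the test among intact glands. Of 17 further milk genes 15 had a probe set and 7 were tested; Cidea, a lipid droplet protein, fell in E+P against V by 1.18 ± 0.25 (adjusted p = 0.0358) and in E against V by 1.64 ± 0.26 (adjusted p = 0.00833), and no other passed in E+P, E or P against V. Cidea was also lower in the fat pads than in V. It read 181 to 308 units in the fat pads, 166 to 418 in E+P and 429 to 718 in V. The median of the milk list for E+P against V was -0.050, beside 0.014 over all tested probe sets. Of 10 tested genes of lactogenic signalling none passed in those comparisons; Stat5a differed by -0.13 ± 0.12 and Elf5, a factor of alveolar cells, by 0.44 ± 0.20 (adjusted p = 0.435) for E+P against V. Elf5 was at the floor in all 3 fat pads, and Elf5, Gata3, Ccnd1 and Id2 were higher in E+P glands than there. Of 16 tested secreted defence genes none passed among E+P, E, P and V, and Wfdc2, a relative of Wfdc18, differed by 0.21 ± 0.22 (adjusted p = 0.810) for E+P against V and was higher than in the fat pads by 4.74 ± 0.24 (adjusted p = 1.81e-11).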

How the data were processed

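Biotin-labelled RNA from 20 samples of mouse glands or fat pads was read on 3 types of Affymetrix array, per the labels' protocols. The deposited values are linear signal intensities from MAS5 (submitters' processing notes), with neither version nor genome build stated in the sources used. The 3 arrays of one group and replicate number were taken as 1 animal. The fat pads were taken as animals other than those of the E+P glands, which the labels do not settle. Nothing in the labels says that animals were handled in batches, and p-values measure the spread between these animals.

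Each array was scaled to a common 2% trimmed mean, given a floor (25th percentile of the type) and turned to log2. Probe sets above the 50th percentile in at least 3 animals were tested (23055 in all) in R 4.3.3 by limma 3.58.1, fitting group means with an intensity trend, and with Benjamini-Hochberg adjustment over the 3 types together. The fit was tested on simulated data. Differences are lower bounds where only the lower group held floored animals. Where both groups held them, as for Csn1s1, the difference can err in either direction. The number of arrays limits the precision. A gene with several probe sets was represented by type A before B before C, then by no special suffix, then by the highest mean. All 10 members are named; from other lists, those past the threshold and a few set genes are. The members and lists were chosen with earlier results of these data known. Replicate numbers gave no sign of paired animals, although low correlations do not settle the question. Over 36 same-number pairs the correlation of deviations ran from -0.10 to 0.098. Alternatives changed the scaling, floor, filter, variance model and covariates, left out each animal, and, added after seeing the data, left out the fat pads with or without the luminal score.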

Additional observations from a re-analysis of the deposited data

Results flagged for a closer look

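Within groups of 4 or 5 animals, 5 of 39 sets of log2 signals held an animal whose gap to its nearest neighbour, as a share of the group's range, passed Dixon's critical value; chance gives about 1 in 20. Glycam1 in V 4 had a ratio of 1, the other V animals all being at the floor. Csn1s1 in E 4 had 0.985, a ratio set by the floor, since E 2 and E 3 were raised to it and E 1 lay just above it; the unfloored signals were 13.6, 4.7, 2.4 and 22.2. Xdh in P 2 had 0.873, Lcn2 in E 2 had 0.865 and Lcn2 in P 1 had 0.837. E 2 was the highest Lcn2 animal of E, P 1 the lowest of P, P 2 the lowest Xdh of P, and E 4 the highest Csn1s1 of E.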

How the results depend on the processing

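For E+P against E the count of 3 members past the test became 1 with the floor at the 10th percentile or without V 4, E 1 and E+P CFP 1 together. It became 0 with no filter, only the groups compared, the replicate block or the Gapdh ratio, and with the luminal score in the model, with or without the fat pads. Muc15 was also lost with an offset, no trend, the lymphocyte score or the fat pads left out. Leaving out 1 animal gave 0 to 3. For E+P against V the count of 4 became 2 with no filter and 2 with the replicate block, and 0 with the luminal score, with or without the fat pads. Other settings gave up to 5. Btn1a1 was also lost with no trend or with only the groups compared. Muc15 was also lost with the floor at the 10th percentile, an offset, no trend, or V 4, E 1 and E+P CFP 1 left out together. Leaving out 1 animal gave 2 to 4, and Ltf and Wfdc18 remained each time. For E+P against P the count of 1 became 0 with the luminal score, with or without the fat pads, and stayed 1 without any single animal. For E against V the count of 0 became 2 with array weights and 1 without V 4, E 1 and E+P CFP 1 together, and 0 to 2 without 1 animal. Without V 4 the members past the test were Lalba (adjusted p = 0.0383), not read as a call, and Glycam1 (adjusted p = 0.0233). For E+P against E+P CFP the count of 6 became 0 with the luminal score and stayed 6 without any single animal. Btn1a1 was lost there with the floor at the 40th percentile. For E+P CFP against V the count of 6 became 0 with the luminal score and was 6 to 8 without 1 animal. Without V 4 the added members were Lalba (adjusted p = 0.0045), not read as a call, and Glycam1 (adjusted p = 0.029). Muc15 was lost there with the floor at the 40th percentile or without V 4, E 1 and E+P CFP 1 together. The luminal score reversed Wfdc18 (-4.10 for E+P against E+P CFP, 5.71 for E+P CFP against V) and Muc15 (-1.83 and 2.90). No fat pad's score overlapped any gland's, and no E+P score overlapped a V or P score. The cause of the other changes was not tested. P against V and the interaction gave 0 throughout. For E+P against V, Lalba crossed the threshold with the floor at the 40th percentile, an offset, array weights, no trend or V 4 left out, and is not read as a call, since only V animals brought it into the test. Dim signals limit Csn1s1 and Lalba, which lie near the floor.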
